A study of Drosophila melanogaster with 22 samples.

Results

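Open chromatin of the eye-antennal disc was compared with that of the T3 leg disc in larvae of Drosophila melanogaster, using the FAIRE peaks that each had on the major arms (2L, 2R, 3L, 3R, X). The eye-antennal disc had 9783 peaks on these arms and the leg disc 18078, which together were 27861 of the 180120 peaks in the 11 FAIRE lists of the study. FAIRE recovers DNA that is not crosslinked to protein, so a peak marks a stretch of open chromatin. Both discs came from larvae of the third instar of a y;cn,bw,sp strain, and T3 names the third thoracic segment, so the leg list is that of the hind leg disc. The other 9 lists used below were of 3 kinds. The haltere disc, wing disc and central nervous system (CNS) were taken from the same strain and larval stage. T3 leg, haltere and wing were taken from pharate adults (stage P14) of that strain. Whole embryos of strain OregonR were collected 2 to 4 h, 6 to 8 h or 16 to 18 h after eggs were laid. Each tissue had 1 list, with no values per replicate, so no test between tissues was possible, and intervals below are exact 95% binomial intervals that cover counting error only.

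Imaginal discs are larval sacs of epithelium from which the adult surface forms. The eye-antennal disc gives rise to the compound eye, the antenna and much of the head capsule, and the leg disc to the leg and the adjoining body wall. Antenna and leg are serial homologues, built along the same proximodistal axis with shared use of genes such as Dll. Hox genes act as the switch between them, since gain of Antp in the antenna turns it into a leg and the antenna is the form taken where no Hox gene acts. The comparison asks how far the open chromatin of a head disc and a thoracic limb disc is the same. Whole discs were profiled, so antenna, eye and head capsule cannot be told apart in the eye-antennal list, nor can a site open in few cells be told from one less open in all. No transcript levels of the eye-antennal disc were analysed here, and its label could not be checked against marker genes. Peaks are given by their position in build dm3, counted from 1, without gene names, because no annotation of that build was used here.

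Most eye-antennal disc peaks were also peaks of the leg disc, while most leg disc peaks were not found in the shorter eye-antennal list. Of the 9783 eye-antennal disc peaks, 6551 (67.0%, interval 66.0 to 67.9) overlapped a leg disc peak by at least 1 bp. In the other direction, 6413 of the 18078 leg disc peaks (35.5%, 34.8 to 36.2) met one of the eye-antennal list. With every peak cut to its central 200 bp the shares were 41.9% and 22.7%, so the majority of eye-antennal disc peaks with a leg disc peak rests on the full width of the peaks. This left 3232 eye-antennal disc peaks with none in the leg disc, 33% of that list, and 11665 leg disc peaks with none in the eye-antennal disc, 64.5% of that list. These are called one-sided below. Merged where they overlapped, the peaks made 20983 regions, of which 6086 (29.0%, 28.4 to 29.6) were open in both discs. The stretches in common covered 2.65 Mb, which was 58.2% of the bases under eye-antennal disc peaks and 27.4% of those under leg disc peaks.

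With equal numbers of peaks the 2 directions were nearly alike. Among the 9000 best-scoring peaks of each list, 60.3% (59.3 to 61.3) of eye-antennal disc peaks overlapped a leg disc peak and 58.0% (57.0 to 59.1) of leg disc peaks an eye-antennal disc peak. One-sided peaks were then 3573 (39.7%) in the eye-antennal disc and 3776 (42%) in the leg disc. This selection removed 783 eye-antennal disc peaks and 9078 leg disc peaks. The last peak kept had a score of 5.26 in the eye-antennal disc and 12.84 in the leg disc, and the first left out 5.25 and 12.84. Of the 3573 one-sided eye-antennal disc peaks of this selection, 782 (21.9%) overlapped a leg disc peak of lower rank. Of the 3776 one-sided leg disc peaks, 209 (5.53%) overlapped an eye-antennal disc peak of lower rank. The number of reads behind each list was not known, so a one-sided peak may be open in the other disc below the limit of its list.

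The share in common was lowest among the very best peaks. It was 49.6% (45.1 to 54.1) among the 500 best of each list and 54.3% (51.2 to 57.4) of eye-antennal disc peaks among the 1000 best. From the 2000 best to the 9000 best it stayed between 58.5% and 60.6% of eye-antennal disc peaks, and between 56.9% and 58.5% of leg disc peaks. Against the full list of the other disc, the best peaks of each were nearly all found. Of the 500 best eye-antennal disc peaks, 487 (97.4%) overlapped some leg disc peak, and of the 500 best leg disc peaks 496 (99.2%) overlapped some eye-antennal disc peak. The best peaks of one disc were therefore mostly open in both discs, but at different ranks.

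**Figure D1:**
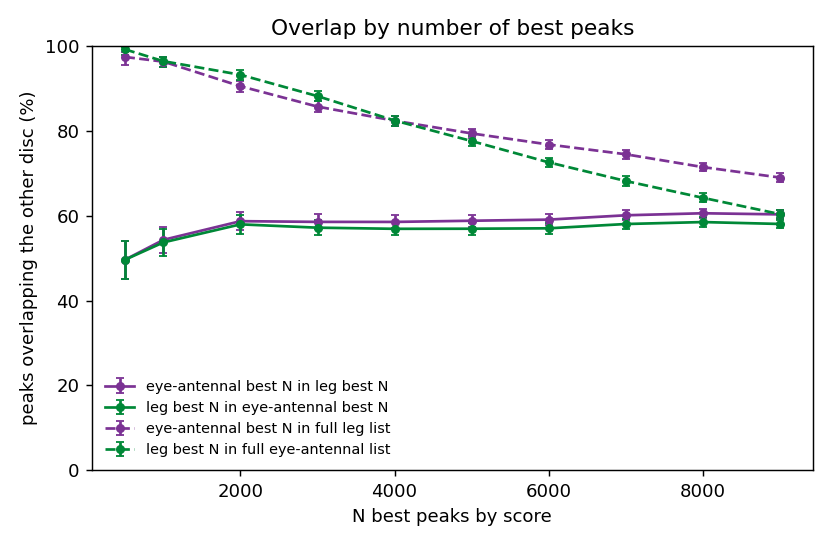
Share of peaks that overlap the other disc (vertical axis, %) against the number N of best-scoring peaks taken (horizontal axis), with exact 95% binomial intervals as bars. Solid lines compare the best N of both lists and lie between 49.6% and 60.6%, and dashed lines compare the best N with the full other list and fall from 97.4% to 69.0% (eye-antennal disc) and from 99.2% to 60.4% (leg disc).

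Score separated shared from one-sided peaks in both discs. The score is the one the authors' peak list gives to each peak. Its scale was not stated, and it is used here for ranks within a list. Shared eye-antennal disc peaks had a median score of 13.65 (quartiles 8.95 and 22.68), and one-sided ones 8.835 (6.4 and 12.97). In the leg disc the medians were 38.85 (18.07 and 84.65) for shared and 8.59 (5.9 and 14.97) for one-sided peaks. Quartiles of the 2 classes overlapped in the eye-antennal disc and did not overlap in the leg disc. Each list was divided by score into 10 classes of equal size. In the best class, 96.3% (94.9 to 97.4) of eye-antennal disc peaks and 93.7% (92.5 to 94.8) of leg disc peaks were shared. In the lowest class 44.5% (41.3 to 47.7) of eye-antennal disc peaks still had a leg disc peak, against 5.04% (4.07 to 6.15) of leg disc peaks with an eye-antennal disc peak. The share fell in every step from the best class to the lowest in both lists, and it fell further in the leg disc.

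**Figure D2:**
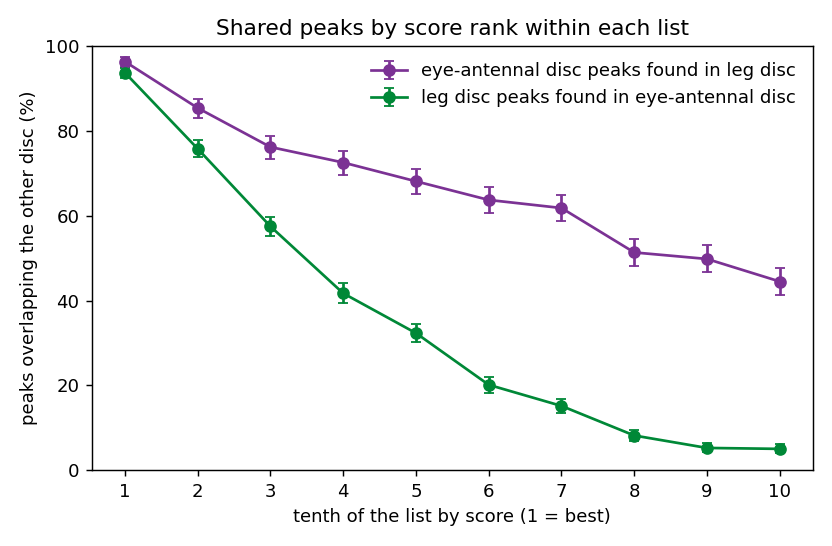
Share of peaks overlapping the other disc (vertical axis, %) in 10 classes of the list by score, 1 being the best (horizontal axis), with exact 95% binomial intervals as bars. The eye-antennal disc falls from 96.3% to 44.5% and the leg disc from 93.7% to 5.04%.

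Shared peaks were also wider. The median width was 427 bp for shared and 332 bp for one-sided eye-antennal disc peaks, and 597 and 379 bp in the leg disc. A wide peak meets another more easily, and width rises with score, so widths were also set side by side within 5 classes of the list by score. In the best of 5 classes of the eye-antennal disc, shared peaks had a median of 624.5 bp and one-sided peaks 453 bp. In that of the leg disc the medians were 745 and 657 bp. In the lowest class they were 314.5 and 293 bp in the eye-antennal disc and 361.5 and 318 bp in the leg disc. Shared peaks had the higher median width in each of the 5 classes of both lists. Scores still differed within a class, with medians of 87.75 (shared) and 56.475 (one-sided) in the best leg disc class. With 10 classes the leg disc widths were 813.5 and 811.5 bp in the best class, 422 and 420 bp in the fifth and 356 and 309 bp in the lowest. The difference was thus small in some leg disc classes. In the best eye-antennal class of 10 the widths were 678 and 502.5 bp. Peaks of at least 1 kb made 6.03% of shared and 0.526% of one-sided eye-antennal disc peaks, and 16.4% and 3.09% in the leg disc.

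Where both discs had a single peak at a place, the peaks lay close together. There were 5376 such pairs, and the midpoints were a median of 104.5 bp apart. In 2627 pairs (48.9%) they were within 100 bp, and in 89.9% at least 50% of the shorter peak was covered. The leg disc peak was the wider in 3803 pairs (70.7%). Over the pairs, the scores of the 2 discs had a Spearman correlation of 0.50 and the widths one of 0.28. These describe sites that share mappability and base composition, and sites are not replicates. In 540 pairs both peaks were in the best of the 10 score classes. Of the 762 pairs with an eye-antennal disc peak in that class, 21 had a leg disc peak in the lower 50% of its list. Of the 1369 pairs with a leg disc peak in it, 155 had an eye-antennal disc peak in the lower 50%. Widely different ranks at shared sites were thus a minority on either side.

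The border between shared and one-sided peaks at 1 bp held few peaks. The overlap was 50 bp or less for 151 shared eye-antennal disc peaks (2.30%) and for 175 shared leg disc peaks (2.73%). Another 137 one-sided eye-antennal disc peaks (4.24%) and 173 one-sided leg disc peaks (1.48%) lay within 50 bp of a peak of the other disc. Median scores just inside and just outside were 9.85 and 10.43 in the eye-antennal disc and 10.27 and 9.84 in the leg disc. Many one-sided peaks lay near a peak of the other disc without touching it. The gap to the nearest one had a median of 1334 bp for eye-antennal disc peaks and 2898 bp for leg disc peaks, towards lists of different length. It was at most 500 bp for 32.5% of one-sided eye-antennal disc peaks and over 10 kb for 13.2%. For leg disc peaks these shares were 16.4% and 16.3%.

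The strongest shared peaks were strong in the other thoracic discs too. The best eye-antennal disc peak was at 2L 13043810 to 13044631, with a score of 152.21. It overlapped a leg disc peak of 373.34 and peaks in the haltere disc, wing disc, all 3 pharate lists and embryos at 16 to 18 h, but none in the CNS or in the 2 earlier embryo lists. The next was at 2R 6469898 to 6471368 (148.44, leg 402.36), which had a peak in every list other than the CNS. The third was at X 1505596 to 1506431 (143.41), and its leg disc counterpart was the second best of that list (413.02). Both early embryo lists lacked a peak there. The best leg disc peak was at 3R 20810535 to 20811433 (439.58, eye-antennal 119.98), which had no peak in the CNS or in embryos at 2 to 4 h. The third best leg disc peak, at 3R 12061925 to 12063683 (410.32, eye-antennal 57.64), was open in all 11 lists. The strongest sites in common thus ranged from sites open in every tissue to sites absent from the CNS or from early embryos.

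The best one-sided eye-antennal disc peaks were mostly peaks of the CNS. The first, at 2L 20310657 to 20311366 (710 bp wide, score 56.91), was 297 bp from the nearest leg disc peak. It was found in the CNS (83.2) and in embryos at 16 to 18 h (31.71). The second, at 2L 6356672 to 6357230 (50.78), was found in the CNS (73.41) and in all 3 embryo lists, with 59.58 at 6 to 8 h. Neither had a peak in any thoracic disc or pharate appendage. The peak at X 10430348 to 10430703 (49.3) was in none of the other lists, and lay 2744 bp from the nearest leg disc peak. The peak at 2L 20174796 to 20175405 (49.3) was far from any leg disc peak, at 29446 bp, and had a peak in the CNS (16.51) and in the wing disc (10.55). The fifth, at 3R 21585116 to 21585577 (46.78), was 233 bp from a leg disc peak and had a CNS peak of 7.06, below the lower quartile of that list (8.6). None of the 5 was in the haltere disc or a pharate appendage. Their ranks in the eye-antennal list ran from 169 to 321, so the 168 peaks above them were all shared with the leg disc.

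The best one-sided leg disc peaks were all peaks of the haltere and wing discs and none of them was in the CNS. The first, at 3R 2824651 to 2825451 (801 bp wide), had a score of 306.24 and rank 60. It lay 795 bp from the nearest eye-antennal disc peak and had a peak in every list but those of the CNS and eye-antennal disc, with 174.07 in the wing disc and 161.34 in embryos at 2 to 4 h. The second, at 2L 5426747 to 5427717 (230.52), had peaks in the haltere disc (24.45), wing disc (15.17), pharate leg (30.5) and pharate wing (8.23). The third was at 2R 6660660 to 6661290 (192.48), with 34.17 in the wing disc and 66.05 in the pharate haltere. Among the other lists, both had peaks in those of thoracic appendages and none in the CNS or embryo lists. The others were at X 18430732 to 18431660 (177.01), with peaks in haltere disc, wing disc and embryos at 6 to 8 h, and 2L 2486365 to 2487850 (168.62), with peaks in haltere disc, wing disc and pharate haltere. Presence in the haltere and wing discs was common to leg disc peaks of high score. In the best of 5 score classes, the haltere disc held 99.5% of shared and 92.9% of one-sided leg disc peaks. The wing disc held 99.7% and 93.1% of them, and the CNS 55.6% and 19.6%.

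The 2 kinds of one-sided peak recurred in different lists. Of the 3232 one-sided eye-antennal disc peaks, 1728 (53.5%, 51.7 to 55.2) overlapped a CNS peak. The wing disc held 185 of them (5.72%, 4.95 to 6.58) and the haltere disc 120 (3.71%, 3.09 to 4.42). The haltere disc held 8856 of the 11665 one-sided leg disc peaks (75.9%, 75.1 to 76.7), the wing disc 6720 (57.6%, 56.7 to 58.5) and the CNS 1283 (11.0%, 10.4 to 11.6). The CNS was thus the list with the larger share on the eye-antennal side and the smaller on the leg side. These lists differ in length, with 9833 peaks in the CNS, 14244 in the wing disc and 17987 in the haltere disc. Against the 9000 best peaks of each, the eye-antennal side had 50.6% in the CNS, 3.06% in the wing disc and 1.52% in the haltere disc. The leg side then had 10.3%, 28.1% and 34.4%, so its shares in the discs fell most while the order of CNS and discs stayed. Over all eye-antennal disc peaks the full lists held 57.0% (CNS), 62.9% (wing) and 60.5% (haltere), so one-sided peaks were near the whole list in the CNS and far below it in the discs. Over all leg disc peaks they held 28.0%, 69.7% and 80.7%, so one-sided peaks were below the whole list in each, by the least in the haltere disc. One-sided eye-antennal disc peaks were chosen for having no leg disc peak, and the leg disc list largely overlapped those of haltere and wing. Their low shares in these 2 discs thus follow in part from that choice. The same holds for the low CNS share on the leg side, since 57.0% of eye-antennal disc peaks were in the CNS. Taken over all scores, the peaks shared by the 2 discs were found in all of these lists more often than the one-sided ones. Of the shared eye-antennal disc peaks, 91.1% were in the wing disc, 88.5% in that of the haltere and 58.7% in the CNS. For shared leg disc peaks the values were 91.7%, 89.3% and 58.9%. Shared peaks had higher scores, and within score classes this order did not always hold. The haltere disc held more of the one-sided leg disc peaks from the third of the 5 score classes to the lowest. In the fourth class it held 73.3% of one-sided and 58.1% of shared peaks, and in the best class 92.9% and 99.5%. The wing disc and the CNS held more of the shared leg disc peaks in each class.

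**Figure D3:**
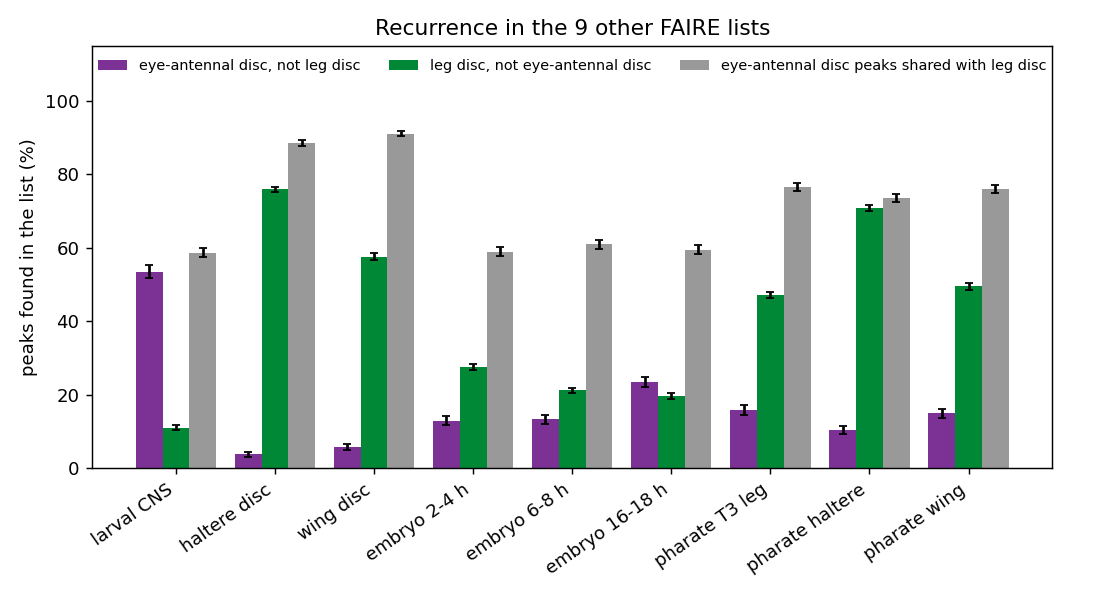
Share of peaks found in each of the 9 other FAIRE lists (vertical axis, %), for one-sided eye-antennal disc peaks (purple), one-sided leg disc peaks (green) and shared eye-antennal disc peaks (grey), with exact 95% binomial intervals as bars. Purple bars reach 53.5% in the CNS and at most 23.4% elsewhere, while green bars are lowest in the CNS (11.0%) and highest in the haltere disc (75.9%).

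Recurrence in the CNS grew with score among one-sided eye-antennal disc peaks. In the best of the 5 score classes 144 of 179 (80.4%, 73.9 to 86.0) were in the CNS, against 66.6% (64.3 to 68.8) of shared peaks of the same class. In the lowest class the share was 37.2% (34.3 to 40.3) for one-sided and 47.5% (44.2 to 50.8) for shared peaks. The one-sided peaks were thus above the shared ones in the best class and below them in the lowest. Of the same best class, the wing disc held 10.6% (6.51 to 16.1) of one-sided and 98.2% (97.5 to 98.8) of shared peaks. Among one-sided leg disc peaks of the best class, 93.1% (90.7 to 95.1) were in the wing disc and 19.6% (16.3 to 23.1) in the CNS. Shared leg disc peaks of that class were in the CNS in 55.6% (53.9 to 57.4).

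The eye-antennal disc and CNS lists also stood together in how they were made. Of the FAIRE samples, only these 2 had labels that gave an index sequence for each replicate, and only their lists had peaks outside the arms and chromosome 4. There were 455 such peaks in the eye-antennal list, 211 in the CNS list and 0 in the leg disc list. On chromosome 4 the eye-antennal disc had 192 peaks, the CNS 157 and the embryo lists 139 to 182, against 41 to 45 in the 6 disc and pharate lists of leg, haltere and wing. Likeness of tissue and likeness of these lists cannot be told apart in the recurrence of eye-antennal disc peaks in the CNS, or in that of leg disc peaks in the haltere and wing discs.

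At the other stages, taken over all scores, one-sided peaks of both discs were found less often than the peaks of their whole lists. The difference was small for leg disc peaks in the pharate haltere. In embryos, one-sided eye-antennal disc peaks were found again in 12.9% (11.8 to 14.1) of cases in the earliest list, 13.2% (12.1 to 14.5) in the middle one and 23.4% (21.9 to 24.9) in the last. For one-sided leg disc peaks the shares were 27.5% (26.7 to 28.3), 21.1% (20.4 to 21.9) and 19.6% (18.9 to 20.4). Over all eye-antennal disc peaks they were 43.8%, 45.2% and 47.6%, and over all leg disc peaks 38.6%, 34.9% and 33.4%. The embryo lists held 12947, 10957 and 13331 peaks. Against these full lists, the order of the 3 ages was the same for one-sided peaks as for the whole list on each side. Against their 9000 best peaks it differed on the eye-antennal side. The 9000 best eye-antennal disc peaks then had 40.1%, 43.0% and 38.7%. Those of them with no leg disc peak had 9.75%, 10.4% and 14.5%. On the leg side the order stayed alike, with 47.0%, 49.8% and 41.3% against 32.7%, 33.2% and 23.2%. In pharate legs the shares were 15.7% (14.5 to 17.1) for the eye-antennal side and 47.1% (46.2 to 48.0) for the leg side. In pharate wings they were 14.9% and 49.5%, and in the longer pharate haltere list 10.3% and 70.9%. All eye-antennal disc peaks were found in these lists in 56.5% (leg), 55.8% (wing) and 52.7% (haltere), and all leg disc peaks in 57.6%, 58.9% and 72.4%. One-sided leg disc peaks were found less often in the pharate leg than in the pharate haltere list, which was the longer with 30329 peaks against 21150. Among the 9000 best peaks of these lists the leg side had shares of 19.9% (leg), 24.9% (haltere) and 19.9% (wing).

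Among one-sided peaks, those of no other list were more frequent on the eye-antennal side. There were 889 one-sided eye-antennal disc peaks (27.5%, 26.0 to 29.1) with no peak in any of the other 9 lists, and 611 one-sided leg disc peaks (5.24%, 4.84 to 5.66). A further 870 eye-antennal disc peaks (26.9%) had the CNS as their only other list, whereas 17 leg disc peaks did (0.146%). The share in no other list fell with score on the eye-antennal side, from 39.4% (36.4 to 42.4) in the lowest of 5 score classes to 12.8% (8.32 to 18.7) in the best. On the leg side it was between 2.36% and 6.41% in the 5 classes. The 9 lists included the pharate leg and other thoracic appendages, but no later stage of the eye-antennal disc. A difference between the discs thus cannot be told here from the choice of tissues. Of the shared eye-antennal disc peaks, 86 (1.31%) were in no further list and 1952 (29.8%) in all 9. For shared leg disc peaks these numbers were 84 (1.31%) and 1912 (29.8%).

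Among all lists, the eye-antennal disc had the largest share of its peaks in common with the leg disc, by a small margin. Over the 9000 best peaks of each list, 60.3% of eye-antennal disc peaks were in the leg disc, 58.0% (57.0 to 59.0) were in the wing disc, 56.5% (55.4 to 57.5) in the CNS and 52.6% (51.6 to 53.7) in that of the haltere. The pharate and embryo lists held 38.7% to 46.0%. Equal numbers did not make the peaks equally wide. Over the full lists the median width was 436 bp in the leg disc, 426 bp in the haltere disc, 420 bp in the wing disc and 379 bp in the CNS. The part of width in this order was not tested. The same eye-antennal disc peaks enter each of these shares. In this selection 477 were in the leg and not in the wing disc, and 269 in the wing and not in the leg disc. Against the CNS, 2365 were in the leg disc and not in the CNS, and 2020 in the CNS and not in the leg disc. For the leg disc the order was another, with 81.4% of its 9000 best peaks in the wing disc, 76.0% in the haltere disc and 58.0% in the eye-antennal disc.

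Eye-antennal disc peaks that were open in the leg disc and in neither the haltere nor the wing disc numbered 410 (4.19%, 3.80 to 4.61). Those open in the wing disc alone among the thoracic discs numbered 101 (1.03%), and those open in the haltere disc alone 36 (0.368%). Over the 9000 best peaks of each list the numbers were 375, 174 and 50. The leg disc list was the longest of the 3 thoracic discs, but the order was the same with equal numbers. Over all scores, 94.2% of the leg disc peaks shared with the eye-antennal disc were in the haltere or wing disc, against 80.0% of one-sided ones. Leg disc peaks found in neither of these 2 discs were thus less frequent among shared than among one-sided peaks. Of the 410 peaks, 218 (53.2%, 48.2 to 58.1) were also in the CNS, 237 (57.8%, 52.9 to 62.6) in the leg of pharate adults, 208 (50.7%, 45.8 to 55.7) in their wing and 206 (50.2%, 45.3 to 55.2) in their haltere. The intervals of these 3 lists overlapped. The whole eye-antennal list had 57.0% in the CNS and 56.5%, 55.8% and 52.7% in these 3, close to the shares of the 410. The 2 best, chosen after their values were seen, were at X 6572838 to 6573254 (score 41.21, leg 23.89) and 3L 16702836 to 16703384 (39.29, leg 15.7). Both were CNS peaks and peaks of embryos at 2 to 4 h. Most of the eye-antennal disc list was shared more widely, with 5624 peaks (57.5%, 56.5 to 58.5) in all 3 thoracic discs and 3011 (30.8%, 29.9 to 31.7) in none.

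One-sided peaks were spread over all arms, and on the eye-antennal side their share was higher near the centromere than in the rest of the arms. On the whole arms, 28.3% of eye-antennal disc peaks were one-sided on 3R and 36.6% on 2L, with 32.0% on 2R, 33.9% on 3L and 34.8% on X, against the 33% of the whole list. Leg disc peaks ran from 62.6% on 3L to 65.7% on 2R. Each arm was divided into 10 parts up to the last peak of any list. In the part next to the centromere 455 of 761 eye-antennal disc peaks (59.8%, 56.2 to 63.3) were one-sided, against 2777 of 9022 (30.8%, 29.8 to 31.7) in the rest of the arms. By arm the share there was 79.4% on 2R, 70.2% on 2L, 68.4% on 3L, 59.1% on X and 32.3% on 3R. Leg disc peaks were one-sided there in 69.2% (66.2 to 72.1), and in 64.3% of the rest. Of the 455 peaks, 30.5% were in the CNS and 37.8% in embryos at 16 to 18 h, against 57.2% and 21.0% of one-sided eye-antennal disc peaks elsewhere. The part next to the centromere held 7.78% of the eye-antennal list and 6.51% to 9.15% of the CNS and embryo lists, but 4.98% to 5.63% of the 6 lists of leg, haltere and wing. This was the same division of lists as on chromosome 4, and its part in these one-sided peaks was not tested.

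**Figure D4:**
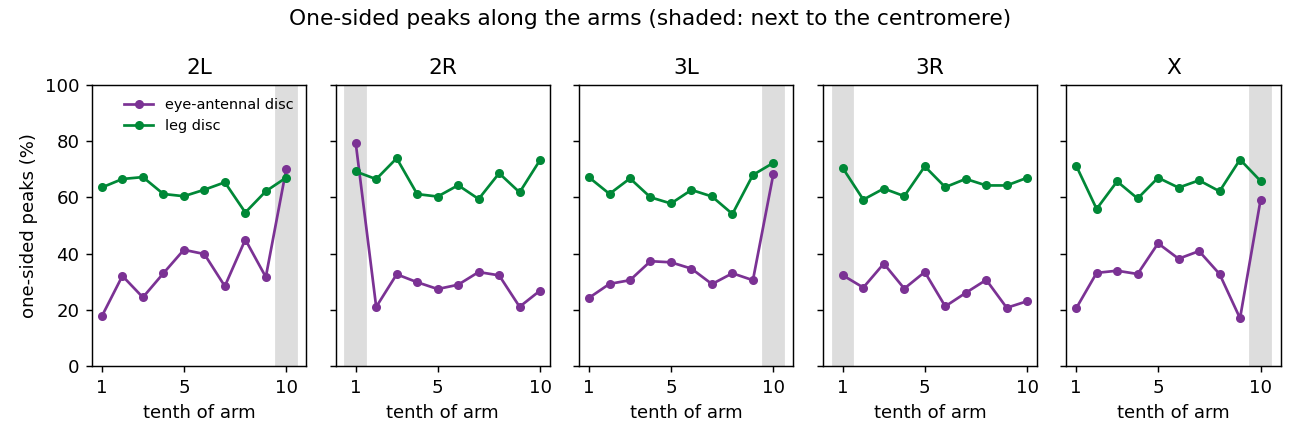
Share of peaks that were one-sided (vertical axis, %) in 10 equal parts of each of the 5 arms (horizontal axis, in the direction of the coordinates), for the eye-antennal disc (purple) and the leg disc (green); the grey band marks the part next to the centromere. The purple line rises in the band to between 59.1% and 79.4% on 2L, 2R, 3L and X, and stays at 32.3% on 3R.

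Grouping of one-sided peaks was described in intervals and in chains, and the 2 measures differed in direction between the discs. In intervals of 50 kb, 2017 held an eye-antennal disc peak and 1530 a one-sided one, with at most 11 in an interval. For the leg disc 2107 intervals held a peak and 2054 a one-sided one, with at most 23. Every peak was one-sided in 35 intervals with 4 or more eye-antennal disc peaks and in 113 with 4 or more leg disc peaks. The 10% of intervals with the most one-sided peaks held 31.1% of those of the eye-antennal disc and 24.3% of those of the leg disc. Chains were also formed, of at least 4 one-sided peaks with gaps of at most 10 kb and no shared peak between them. There were 69 in the eye-antennal disc, with 331 peaks (10.2% of its one-sided peaks), and 957 in the leg disc, with 5498 peaks (47.1%). The leg disc had more one-sided peaks to group, and 64.5% of its peaks were one-sided against 33% in the eye-antennal disc. The counts and shares of both measures thus also carry the length of the lists and these base shares. No comparison with equal numbers was made, so the opposite directions are not read as a difference in grouping.

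For the eye-antennal disc, the interval 2L 10250001 to 10300000 had the largest summed score of one-sided peaks (125.02). The order of intervals depended on how they were set. For the eye-antennal disc, 0 of the first 3 were met by the new first 3 with intervals of 25 kb. With intervals of 100 kb, a shift of 25 kb or the 9000 best peaks, 2 of 3 were met each time. For the leg disc 1 of 3 was met under each alternative tried. In the interval 2L 10250001 to 10300000, 11 of the 12 eye-antennal disc peaks were one-sided, and the leg disc had 4 peaks. The CNS had 16 peaks in this interval, the haltere disc 4 and the wing disc 3. The interval was thus dense in the eye-antennal disc and CNS and sparse in the thoracic discs. The next was X 3300001 to 3350000 (120.91), with 7 of 12 peaks one-sided, a best score of 38.06 and 5 peaks in the CNS. The third, 3L 10650001 to 10700000 (116.27), was dense in every list. It had 7 of 17 peaks one-sided, and the leg disc had 18 peaks there and the CNS 25.

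For the leg disc, the first interval was 2L 11050001 to 11100000, with a sum of 634.6. It had 7 of 12 peaks one-sided and a best score of 162.41. The eye-antennal disc had 8 peaks there, the wing disc 13 and the CNS 2. The next was 3R 2750001 to 2800000 (572.23), where 17 of 18 leg disc peaks were one-sided and the eye-antennal disc had 2 peaks. The wing disc had 17 peaks in it, the haltere disc 12 and embryos at 2 to 4 h 13. The third was X 18150001 to 18200000 (538.53), with 17 of 23 one-sided, 25 peaks in the haltere disc, 16 in the wing disc and 0 in the CNS list. All 3 intervals held 10 or more peaks of the haltere and wing discs.

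Of the 2 eye-antennal disc chains with 8 peaks, the one with the larger summed score had no peak of a thoracic disc in its span. It lay at 2L 22909086 to 22923155, over 14.07 kb in the part of 2L next to the centromere, with 8 peaks and a summed score of 68.89. The other larval and the pharate lists had 0 peaks there, and embryos had 3 at 6 to 8 h and 4 at 16 to 18 h. The other, at 2L 20891103 to 20928274 (summed score 67.32), had 3 leg disc, 3 haltere disc, 5 wing disc, 7 CNS and 13 pharate wing peaks in its span. The third, at 2L 10386495 to 10419285 with 7 peaks (summed score 104.07), had 7 leg disc peaks in its span, none of them overlapping its own. A chain outside the rule for naming, chosen after its values were seen, had 7 peaks at X 4921614 to 4929584. There the other lists had 0 peaks, apart from 1 in the pharate leg.

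The longest leg disc chain, at 2R 11788918 to 11855768, had 23 peaks over 66.851 kb. The eye-antennal disc had 1 peak there, the haltere disc 24, the wing disc 14 and the pharate haltere 38. The second, at 2R 4975551 to 5022646, had 21 leg disc and 2 eye-antennal disc peaks, and the haltere disc had 22 and the wing disc 14. The spans of these chains held peaks of all thoracic discs, counted whether or not they overlapped the peaks of the chain. The span of the third did not. At 3R 12484371 to 12525508 the leg disc had 18 peaks with a summed score of 548.14, and the haltere disc had 16 and the pharate haltere 25. The pharate leg had 7 and the embryo lists 6 to 8, while the eye-antennal disc, wing disc, pharate wing and CNS lists had 0. It was the chain of these 3 whose span held peaks of the haltere lists and none of the wing lists.

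**Figure D5:**
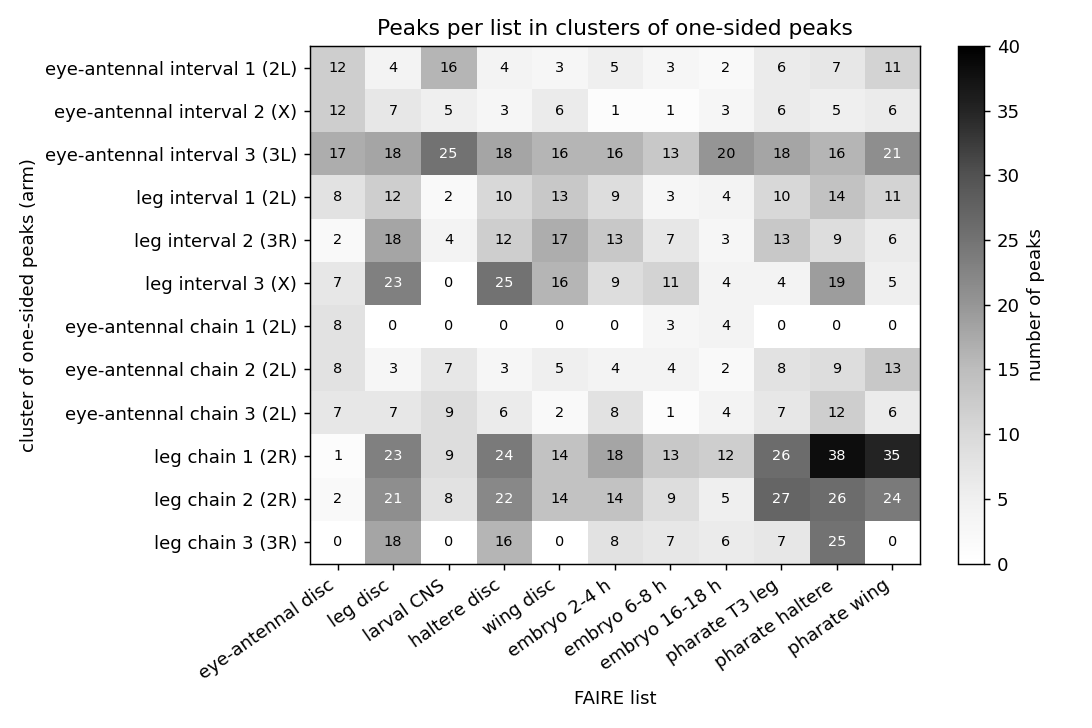
Number of peaks of each of the 11 FAIRE lists (columns) within the 3 intervals of 50 kb with the largest summed score of one-sided peaks and the 3 chains with the most one-sided peaks, for each disc (rows, with the arm in brackets); darker cells hold more peaks. The third leg disc chain has 18 leg disc, 16 haltere disc and 25 pharate haltere peaks beside 0 in the eye-antennal disc, wing disc, CNS and pharate wing.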

How the data were processed

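Open chromatin was measured by FAIRE-seq. Fixation took 10 minutes at 25 °C, and sonication left fragments of 500 bp to 2 kb, per the labels' protocols. The deposited peak lists give 1 score per peak, with no header. Tools named in the submitters' processing notes include Bowtie 0.12.3, CASAVA 1.7 and MACS2, with build dm3. What the score measures, where peaks were cut off, which control was used and how replicates were combined are not given in the sources used here. The lowest scores on the arms were 2.06 in the eye-antennal disc and 2.03 in the leg disc. The labels name 3 replicates behind each of these lists, and the series design 2 for the eye-antennal disc.

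From these lists, overlaps, merged regions, intervals and chains were computed with Python 3.11.15, numpy 2.4.6, pandas 2.3.3 and scipy 1.17.1. The overlap code was tested on simulated peaks. Peaks count as shared at 1 bp of overlap. Best peaks were taken by score, with ties broken by position. Peaks were placed in intervals by their midpoint. Named regions are the 5 best one-sided and 3 best shared peaks of each list, and the 3 first intervals and chains of each. A peak that leads both lists is given once. Members and rules were chosen with earlier results of these data known. No test was run, since each tissue has 1 list, and the number of reads per list is unknown. The alternatives tried are given in the closing section. The RNA tables and genomic inputs were not used here.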

Additional observations from a re-analysis of the deposited data

Results flagged for a closer look

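Outside the 5 arms compared, the eye-antennal disc list held 647 further peaks (6.20% of the list), 192 on chromosome 4 and 455 on heterochromatic, unplaced and mitochondrial sequences. The leg disc list held 45, all of them on chromosome 4. Beyond these counts by list, the peaks entered no comparison of the discs. The genomic inputs of the series were not analysed here, so their level was set against no control.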

How the results depend on the processing

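The share of eye-antennal disc peaks in the leg disc (67.0%) was 60.3% among the 9000 best of each list, 58.8% among the 5000 best, 72.8% in the better-scoring 50%, 63.6% with 100 bp of overlap, 59.8% with 50% of either peak covered, 41.9% with peaks cut to their central 200 bp, and 65.9% with chromosome 4. The share of leg disc peaks in the eye-antennal disc (35.5%) was 58.0%, 56.9%, 39.3%, 33.4%, 31.2% and 22.7% under the first 6 of these. Adding chromosome 4 moved the share of eye-antennal disc peaks just below its interval (66.0 to 67.9) and left that of leg disc peaks within its own. Leaving out X moved neither share beyond its interval. Leaving out the 10% of each arm next to the centromere, added after the data were seen, gave 69.2% for eye-antennal disc peaks, and 57.2% for recurrence of its one-sided peaks in the CNS.

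Regions of the leg disc only were 3776 among the 9000 best, against 11665, and regions of the eye-antennal disc only 5686 with peaks cut to 200 bp, against 3232. For peaks among the 9000 best with none in the full list of the other disc, recurrence in the CNS was 56.6% (eye-antennal disc) and 19.6% (leg disc), and leg disc peaks recurred in the wing disc in 83.2%. Against the 9000 best peaks of the other list, recurrence in the CNS was 50.6% and 10.3%, and in the wing disc 3.06% and 28.1%. The contrast between CNS and wing disc kept its direction on both sides in each of these. Of the first 3 eye-antennal intervals, 0 were met by the first 3 at 25 kb, and 2 at 100 kb, 2 with a shift of 25 kb and 2 among the 9000 best. Of the first 3 leg disc intervals, 1 was met at 25 kb, 1 at 100 kb, 1 with a shift of 25 kb and 1 among the 9000 best. The order of the leg disc intervals thus changed with their length, their start and the peaks entered. Eye-antennal chains were 42 with gaps of 5 kb, against 69. Where a value moved, the cause was not tested unless fewer or narrower peaks entered by construction. No paired analysis was possible because each tissue has 1 list without replicate values, and for the same reason no replicate could be left out.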
